A study of Mus musculus with 18 samples.

Results

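The genes described here are 38 enzymes, regulatory proteins and cofactors of sphingolipid metabolism, measured by RNA-seq in the livers of 18 mice. They were chosen by gene symbol, for their place in the pathway, from the 25266 genes of the tables, with earlier results of these data known. Counts of members beside those of all genes are therefore descriptions and not an independent test. The members comprised 12 genes of de novo ceramide synthesis, 4 ceramidases, 6 genes of sphingomyelin turnover, 11 genes of glycosphingolipid synthesis and breakdown, and 5 genes of sphingosine phosphate and ceramide phosphate metabolism. All 38 symbols were found. Of these, 35 had a mean level of at least 0.5 RPKM (reads per kilobase of transcript, scaled to the reads mapped in the library) over the 18 mice and were tested, while Degs2, B4galt6 and Sphk1 were below this level and are given mainly as levels.

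Ceramide is the hub of this pathway. It is built in the endoplasmic reticulum, where serine palmitoyltransferase joins serine to a fatty acyl-CoA, a reductase and a ceramide synthase follow, and a desaturase places the final double bond. Ceramide is then turned into sphingomyelin or glycosphingolipids, phosphorylated, or cut by ceramidases to sphingosine, while lysosomal hydrolases return complex sphingolipids to ceramide and sphingosine. In liver, ceramides are known for their link to insulin signaling and fat accumulation, and the ceramide synthases differ in the acyl chains they attach.

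All mice carried floxed alleles of Ppp6r3, which encodes SAPS3, a regulatory subunit of protein phosphatase 6. FF mice had the floxed alleles alone. LKO mice came from crossing FF mice with C57BL/6 Alb-Cre mice, in which the albumin promoter drives Cre recombinase in hepatocytes. Whether other liver cells kept the gene was not measured. Both genotypes were males given a control diet (CD, 10 kcal% fat, D12450B) or a high-fat diet (HFD, 32.5 kcal% fat, D12266) from 8 weeks of age for 16 weeks. There were 4 FF CD, 4 LKO CD, 5 FF HFD and 5 LKO HFD mice, each with its own liver library. The comparisons asked how diet and the loss of SAPS3 in hepatocytes changed liver transcripts, here those of the sphingolipid genes.

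The depth recovered from the spacing of low RPKM values was 23.4 to 37.0 M reads per library, and every tested member rested on at least 22 reads in each mouse. Ppp6r3 (chr19:3454928-3575749, minus strand) was at 9.34 ± 1.14 RPKM in FF CD and 3.99 ± 0.0823 RPKM in LKO CD mice (SD, n = 4 each). It was at 8.23 ± 0.468 RPKM in FF HFD and 4.60 ± 0.271 RPKM in LKO HFD mice (SD, n = 5 each), and the genotypes did not overlap on either diet. The summed level of 7 hepatocyte markers was 31260 RPKM or more in every mouse. That of 11 Kupffer cell and macrophage markers ranged from 58.6 to 81.2 RPKM in FF CD, 56.4 to 81.3 RPKM in LKO CD, 72.6 to 132 RPKM in FF HFD and 70.4 to 129 RPKM in LKO HFD mice. That of 7 sinusoidal endothelial markers ranged from 15.0 to 32.3, 11.9 to 34.0, 39.4 to 65.9 and 31.0 to 42.8 RPKM in the same order, and that of 8 stellate cell markers from 60.9 to 88.4, 60.9 to 107, 77.4 to 124 and 54.0 to 107 RPKM. Dcn, with a mean of 64.4 RPKM over all mice, was the largest part of the stellate sum. None of these non-hepatocyte markers was listed at 0 in any mouse except Gpnmb, in 2 mice. In whole liver, more cells of a type and more RNA per cell cannot be told apart.

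The bases upstream of 4 genes that rose on HFD in FF mice are shown first, because lysosomal genes, some members among them, are known targets of TFEB-family transcription factors, which bind a palindrome centred on CACGTG. Each line gives the 250 bases before the transcription start in RefSeq (build GRCm38.p6), 5′ to 3′ on the gene's own strand, with CACGTG in capitals. Cers6 encodes a ceramide synthase, and its window is chr2:68861191-68861440 on the plus strand. Arsa encodes lysosomal arylsulfatase A, with its window at chr15:89477425-89477674 on the minus strand. Hexa encodes the alpha subunit of lysosomal beta-hexosaminidase, with its window at chr9:59539290-59539539 on the plus strand. Psap encodes the precursor of the saposins, which help lysosomal hydrolases reach their lipids, and its window is chr10:60277378-60277627 on the plus strand.
Cers6: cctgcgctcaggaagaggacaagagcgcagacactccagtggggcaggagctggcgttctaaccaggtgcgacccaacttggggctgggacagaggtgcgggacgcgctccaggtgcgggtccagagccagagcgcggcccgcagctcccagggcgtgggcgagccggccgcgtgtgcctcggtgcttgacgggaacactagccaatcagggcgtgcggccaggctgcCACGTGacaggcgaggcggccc
Arsa: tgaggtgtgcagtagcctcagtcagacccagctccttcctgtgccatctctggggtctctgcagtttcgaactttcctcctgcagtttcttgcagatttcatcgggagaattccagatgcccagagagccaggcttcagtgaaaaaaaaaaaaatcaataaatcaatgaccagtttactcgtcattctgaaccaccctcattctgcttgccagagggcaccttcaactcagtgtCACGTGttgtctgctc
Hexa: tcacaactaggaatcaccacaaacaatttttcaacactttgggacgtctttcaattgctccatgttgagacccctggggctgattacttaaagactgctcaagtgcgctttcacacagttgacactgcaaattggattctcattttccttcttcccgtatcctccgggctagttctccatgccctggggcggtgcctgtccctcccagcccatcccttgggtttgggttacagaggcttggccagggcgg
Psap: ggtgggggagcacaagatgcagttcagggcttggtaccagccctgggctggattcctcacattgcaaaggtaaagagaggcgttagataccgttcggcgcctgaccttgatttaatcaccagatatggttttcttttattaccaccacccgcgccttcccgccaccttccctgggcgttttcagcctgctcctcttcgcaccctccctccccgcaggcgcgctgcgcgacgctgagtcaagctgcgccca

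The first base of CACGTG lay 22 bases before the start of Cers6 and 16 bases before that of Arsa, and the Hexa and Psap windows held no match. Windows were found in RefSeq for 35 of the 38 members, but not for Asah1, Smpd3 and B4galt6. CACGTG, which reads the same on both strands, was present in 7 of the 35 windows nearest the annotated starts, those of Cers2, Cers6, Degs1, Smpd2, Glb1, Gla and Arsa. The RefSeq starts of Cers2, Degs1, Sgms1 and Asah2 lay 399, 609, 1202 and 5071 bases from the annotated gene start, the farthest of the 35. For 33 of the 35, the bases after the start matched an annotated transcript, but not for Degs1 and Sgms2. CACGTG was present in 6.02% of all 32851 windows of this length and in 8.53% of the 11282 windows of tested genes. Of the 8 lysosomal members with a window, 3 held it, namely Glb1, Gla and Arsa. The longer palindrome TCACGTGA, which contains CACGTG, occurred among the 35 windows in that of Gla, at 228 and 195 bases before the start, and in 0.785% of all windows. The full palindrome GTCACGTGAC was in none of the 35 windows and in 0.24% of all windows. Of the 12 members with a window that rose on HFD in FF mice 2 held CACGTG, and of the other 23 members 5 held it. These are matches of letters, given with no test.

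By adjusted p, HFD feeding raised at least 1 gene of each step of the pathway in FF mice. In the sphingosine phosphate step this was Sphk2 alone as deposited, which was not called by the fold rule that follows. By the rule of a fold above 1.5 with an adjusted p under 0.05 (limma, 11090 genes), 9 of 35 members were called, all higher on HFD: Kdsr, Cers6, Ormdl3, Acer2, Smpd3, Arsa, St3gal5, Hexa and Psap. Over all genes, 6.6% were called, and 5.11% were called as higher on HFD. By adjusted p alone 13 members rose, with Sptlc2, Asah2, Sgms1 and Sphk2 added, and none fell. Of all genes 20.6% passed the adjusted p, 15.8% as higher and 4.79% as lower on HFD. The direction of the other genes depended on scaling: 76.8% of the genes that passed were higher on HFD as deposited, 47.2% after quantile normalization, 47.7% after centring each mouse on its median and 88.0% with values rescaled to the same sum. Of the members, 12 rose and 1, Galc, fell after quantile normalization or centring, and 19 rose and none fell after rescaling. The median log2 fold change of the 35 members was 0.22, that of all genes was 0.071, and 26 members lay above the latter. The gap between these medians, 0.149, was 0.141 to 0.149 under the 3 other scalings. FF CD and FF HFD mice did not overlap for 10 of 35 members, as for 18.3% of all genes. Without FF CD replicate 3, which held the lowest FF CD level of several of these genes, 6 members were called.

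In LKO mice no member changed on HFD by either rule as deposited, and 8 had an unadjusted p under 0.05. By adjusted p, Ormdl2 and Sphk2 rose after rescaling to the same sum and Cers2 fell after centring on the median. Without LKO HFD replicate 1, Ormdl2, Cers6 and Sptlc2 rose and Cers2 fell. Over all genes, 1.27% were called in LKO mice and 4.05% passed the adjusted p. Of those that passed, 85.1% were higher on HFD as deposited, 86.8% after rescaling, 49.6% after quantile normalization and 33.0% after centring. The median log2 fold change of the members was 0.059 and that of all genes 0.067. LKO and FF mice on CD differed in no member by either rule, with 6 at an unadjusted p under 0.05, while 0.225% of all genes were called and 0.234% passed the adjusted p. Of the 26 genes that passed, 38.5% were higher in LKO mice, against 52.9% after rescaling, 51.7% after quantile normalization and 36.7% after centring.

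On HFD, 2 members were called as lower in LKO than in FF mice, Smpd3 and Acer2, and 1 without any of FF HFD replicates 2, 4 and 5 or LKO HFD replicates 3 and 4. The count was 3 without FF HFD replicate 1, after rescaling or after centring, where St3gal5 was added as lower, and without LKO HFD replicate 1, where Ugcg was added as higher. By adjusted p alone 4 were lower, with Asah2 and Sgms1 added, and none was higher as deposited. Psap was also lower under each of the 3 other scalings, and Ormdl2 was higher after rescaling or quantile normalization and without FF CD replicate 4, FF HFD replicate 1 or LKO HFD replicate 1. Of all genes, 2.07% were called in this comparison, 4.2% passed the adjusted p and 2.1% passed it as lower in LKO mice. Thus 50.0% of those that passed were higher, against 32.6% after rescaling, 46.5% after quantile normalization and 38.3% after centring. The difference between the HFD effects of the genotypes was tested as an interaction, which called 1 member, Hexa, and passed Hexa and Sgms1 by adjusted p alone. Of all genes 2.44% were called and 2.97% passed the adjusted p. The value was higher in LKO mice for 38.3% of these, against 23.6% after rescaling, 41.0% after quantile normalization and 36.1% after centring. Arsa and Psap passed as well under each of the 3 other scalings, and Ormdl3 after rescaling. The interaction called 0 members without FF CD replicate 3, LKO CD replicate 2 or 4 or FF HFD replicate 2, and 2 to 4 without LKO CD replicate 3, FF HFD replicate 1 or 5 or LKO HFD replicate 1. For the other 33 tested members, the HFD effect was neither shown to differ between the genotypes nor shown to be alike. The comparisons share groups of mice, so their counts are not independent.

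**Figure D1:**
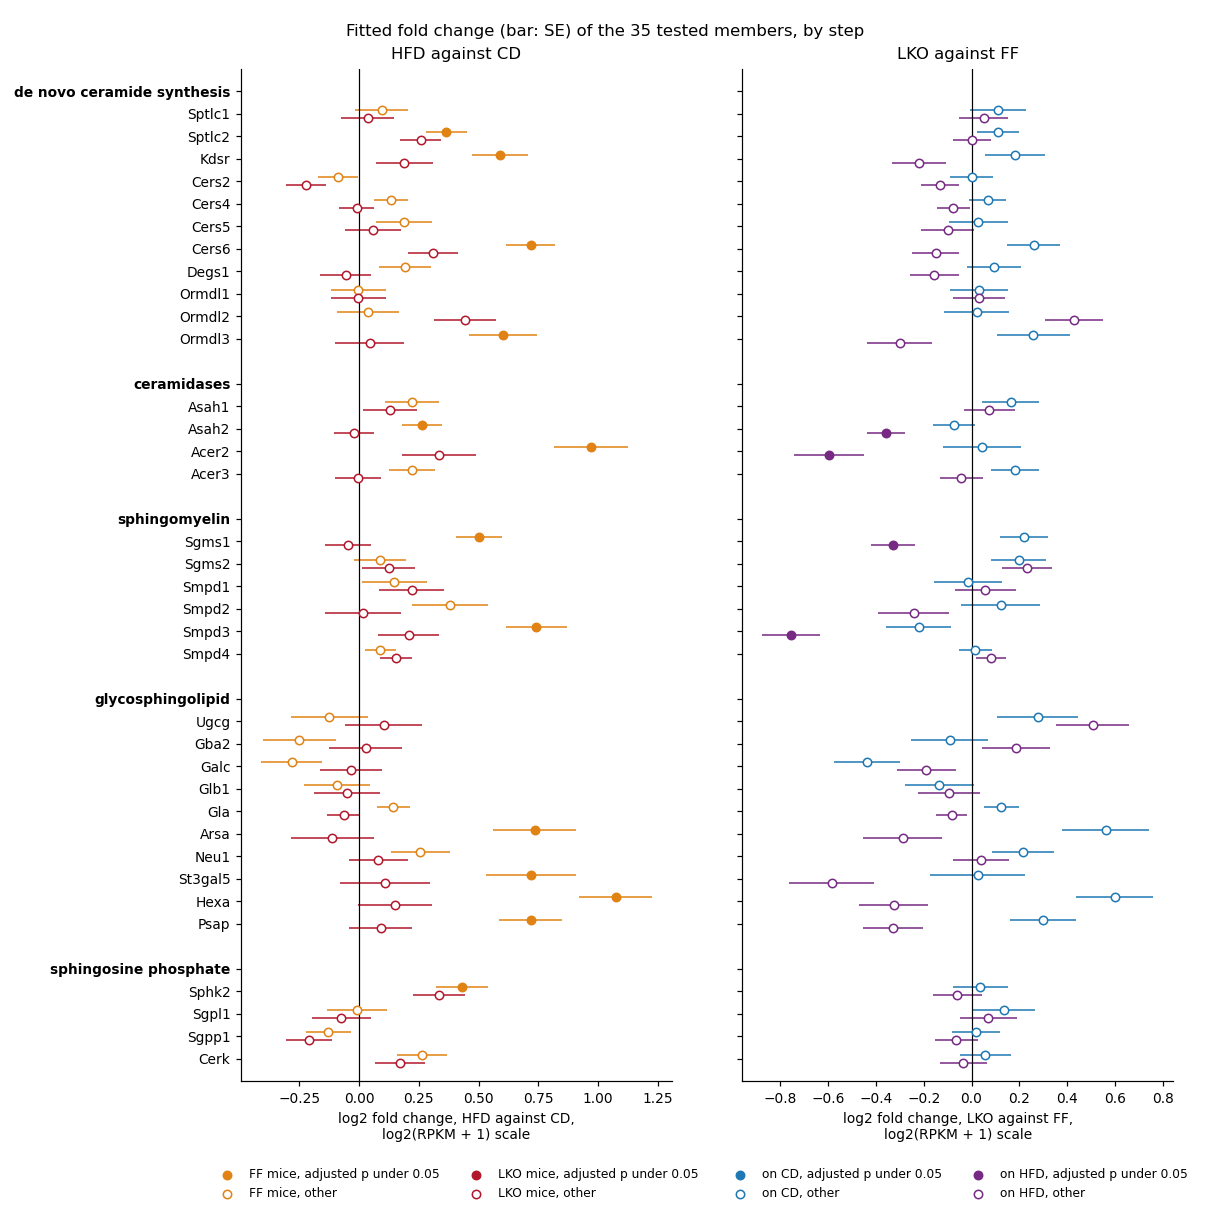
Fitted log2 fold changes (bars, SE) of the 35 tested members by step, on the log2(RPKM + 1) scale, for HFD against CD in each genotype (left) and for LKO against FF on each diet (right). Filled points passed the adjusted p: 13 in FF and 0 in LKO mice on the left, and 0 on CD and 4 on HFD on the right.

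**Figure D2:**
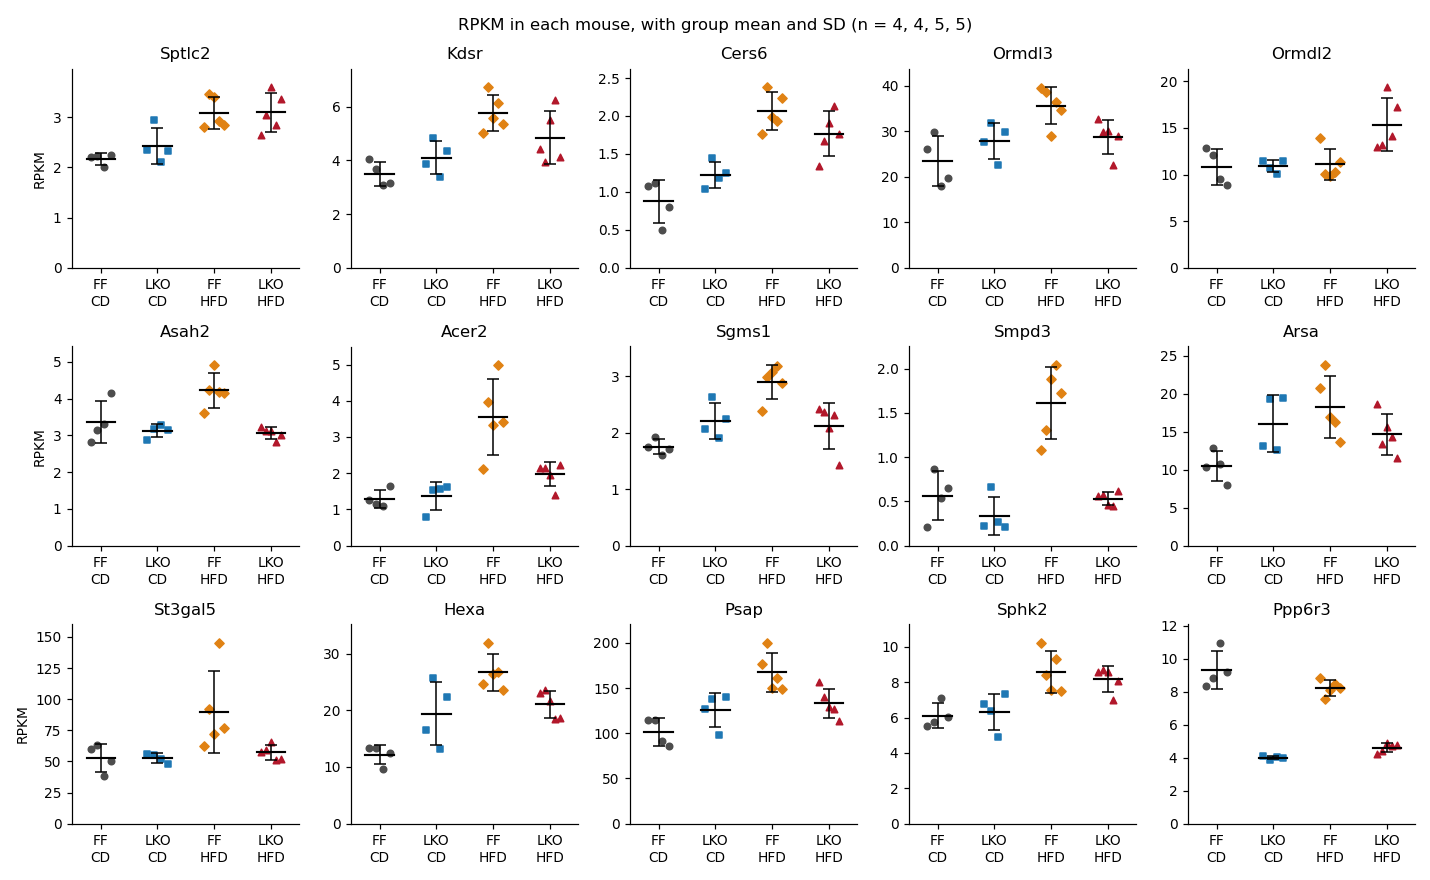
RPKM in each mouse for the 13 members that rose on HFD in FF mice, for Ormdl2 and for Ppp6r3, with the group mean (line) and SD (bar). FF HFD mice lie above all FF CD mice for 10 of the 13 members, and Ppp6r3 is lower in LKO mice on both diets.

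In de novo ceramide synthesis, 4 of 11 tested genes rose on HFD in FF mice, and they sat at different points of the route: Sptlc2, Kdsr, Cers6 and Ormdl3. Sptlc2 encodes a catalytic subunit of serine palmitoyltransferase, the first and rate-limiting enzyme. Its level was 2.20, 2.23, 1.999 and 2.24 RPKM in the FF CD mice and 2.80, 3.47, 3.39, 2.92 and 2.85 RPKM in the FF HFD mice. These groups did not overlap, and the log2 fold change was 0.36 ± 0.0841 (SE), with a limma adjusted p of 0.00529 and an exact two-sided permutation p of 0.00794, the smallest that 4 against 5 mice allow. LKO HFD mice were at 3.09 ± 0.388 RPKM (SD, n = 5), close to FF HFD mice, and LKO CD mice at 2.43 ± 0.355 RPKM (SD, n = 4). Its partner Sptlc1 had group means between 7.53 and 8.38 RPKM and passed in no comparison.

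Kdsr, the reductase that acts on the product of serine palmitoyltransferase, was at 4.05, 3.68, 3.09 and 3.16 RPKM in FF CD and at 5.0, 6.74, 5.59, 6.13 and 5.35 RPKM in FF HFD mice. Every FF HFD mouse exceeded every FF CD mouse, with a log2 fold change of 0.59 ± 0.118 (SE, limma adjusted p = 0.0021). LKO HFD mice spread from 3.95 to 6.25 RPKM around a mean of 4.85 RPKM, and so reached into both FF groups.

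The 4 ceramide synthases among the members differed widely in level. Cers2, the synthase of very long acyl chains and the main one in liver, was at 129 ± 7.93 RPKM in FF CD, 129 ± 5.08 RPKM in LKO CD (SD, n = 4 each), 121 ± 6.19 RPKM in FF HFD and 111 ± 12.0 RPKM in LKO HFD mice (SD, n = 5 each). It made up 97.0% to 98.4% of the summed RPKM of the 4 synthases as group means. Cers4 and Cers5 had group means of 0.484 to 0.629 and 0.783 to 1.03 RPKM. None of these 3 synthases passed with the values as deposited. Cers2 fell on HFD in LKO mice after centring on the median (limma adjusted p = 0.039) and without LKO HFD replicate 1 (0.0461).

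Cers6 (chr2:68861441-69114282, plus strand), the synthase that makes ceramide with the shorter palmitoyl chain, more than doubled its mean level on HFD in FF mice. The FF CD mice were at 1.08, 1.12, 0.502 and 0.798 RPKM and the FF HFD mice at 1.76, 2.39, 1.99, 1.94 and 2.23 RPKM. The groups did not overlap, the ratio of the means was 2.36 and the log2 fold change on the log2(RPKM + 1) scale, which understates changes at low levels, was 0.72 ± 0.104 (SE, limma adjusted p = 0.000144, exact permutation p = 0.00794). The 5 FF HFD and 4 FF CD values rest on 83 reads or more each.

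Cers6 in LKO CD mice was at 1.03, 1.45, 1.18 and 1.25 RPKM and in LKO HFD mice at 1.34, 1.67, 1.91, 2.13 and 1.77 RPKM. The lowest LKO HFD mouse lay within the LKO CD range, the other 4 above it. As a share of Cers2, which carries no test, Cers6 was 0.671% ± 0.188 in FF CD, 0.956% ± 0.158 in LKO CD (SD, n = 4 each), 1.71% ± 0.215 in FF HFD and 1.63% ± 0.417 in LKO HFD mice (SD, n = 5 each). On this share, the FF HFD mice ran from 1.39% to 1.93%, above the highest FF CD mouse at 0.836%, and the LKO HFD mice from 1.03% to 2.16%, overlapping the LKO CD mice, whose highest value was 1.16%.

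**Figure D3:**
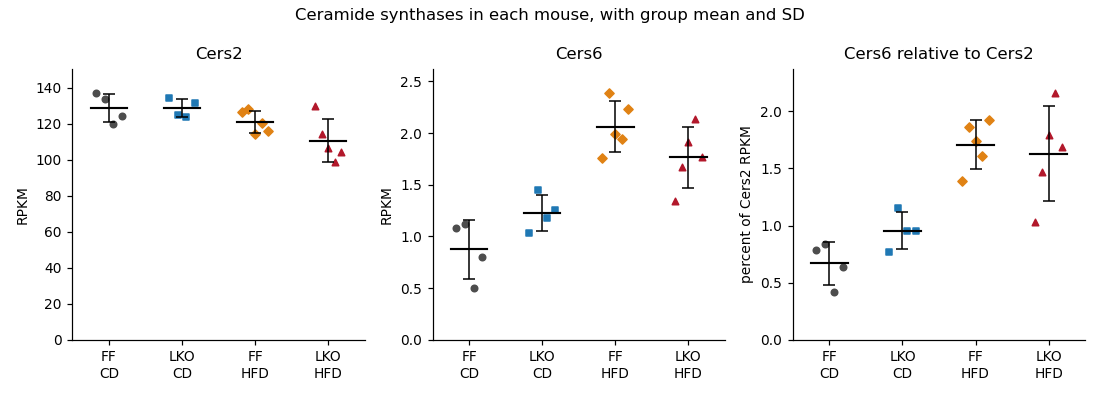
Cers2 and Cers6 in RPKM and Cers6 as a percent of Cers2, in each mouse, with group mean (line) and SD (bar). Cers6 is a small fraction of Cers2 in all groups, with group means of 0.671% to 1.71%, and both HFD groups have higher mean shares than the CD groups.

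The ORMDL proteins hold serine palmitoyltransferase in check when ceramide is plentiful. Of their 3 genes, Ormdl3 passed on HFD in FF mice, and no difference among the 3 was tested. Ormdl3 was at 26.2, 29.9, 18.03 and 19.7 RPKM in FF CD mice and at 39.4, 38.6, 29.0, 36.4 and 34.8 RPKM in FF HFD mice. The lowest FF HFD mouse lay within the FF CD range, and the log2 fold change was 0.60 ± 0.144 (SE, limma adjusted p = 0.00664). LKO mice were at 27.9 ± 3.95 RPKM on CD (SD, n = 4) and 28.8 ± 3.73 RPKM on HFD (SD, n = 5).

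Ormdl2 had the smallest adjusted p of the members on HFD in LKO mice, which missed the threshold. LKO CD mice were at 11.5, 10.7, 10.1 and 11.4 RPKM and LKO HFD mice at 12.9, 13.2, 19.4, 14.1 and 17.2 RPKM, with no overlap, and the log2 fold change was 0.44 ± 0.129 (SE, limma adjusted p = 0.0609, exact permutation p = 0.0159). With the RPKM values rescaled to the same sum in each mouse the adjusted p was 0.0318, and without LKO HFD or FF HFD replicate 1 it was 0.038 and 0.0477. In FF mice the Ormdl2 means were 10.8 RPKM on CD and 11.1 RPKM on HFD. Ormdl1 had means of 12.2 to 12.5 RPKM and passed no test. Degs1, the desaturase of the last step, had means of 30.4, 32.4, 34.9 and 31.2 RPKM in FF CD, LKO CD, FF HFD and LKO HFD mice and passed on HFD in FF mice after rescaling to the same sum (limma adjusted p = 0.0235) but not as deposited. Degs2 was below 0.3 RPKM in every mouse.

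Among the ceramidases, Acer2 and Asah2 rose on HFD in FF mice and were lower in LKO than in FF mice on HFD. Acer2 (chr4:86874396-86934822, plus strand), an alkaline ceramidase of the Golgi, was at 1.26, 1.16, 1.09 and 1.65 RPKM in FF CD and at 2.12, 3.97, 3.33, 4.997 and 3.41 RPKM in FF HFD mice. All FF HFD mice stood above the FF CD mice, the ratio of the means was 2.77 and the log2 fold change was 0.97 ± 0.155 (SE, limma adjusted p = 0.000351). LKO HFD mice were at 2.13, 2.16, 1.94, 1.41 and 2.22 RPKM, so that 4 FF HFD mice exceeded all of them and the remaining FF HFD mouse lay among them. The log2 fold change of LKO against FF on HFD was -0.59 ± 0.146 (SE, limma adjusted p = 0.0284, exact permutation p = 0.0317). This call was lost without FF HFD replicate 2, 4 or 5 or without LKO HFD replicate 3 or 4, with adjusted p up to 0.0794. The range in LKO CD mice was 0.783 to 1.62 RPKM.

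Asah2, the neutral ceramidase, was at 2.83, 3.16, 3.32 and 4.16 RPKM in FF CD and at 3.62, 4.23, 4.93, 4.19 and 4.16 RPKM in FF HFD mice. The highest FF CD mouse lay among the FF HFD mice, and the log2 fold change was 0.26 ± 0.0835 (SE, limma adjusted p = 0.0324, exact permutation p = 0.0556). Centring each mouse on its median gave 0.17 with an adjusted p of 0.245, and the call was also lost without FF CD replicate 1, 2 or 3 or FF HFD replicate 2, 3 or 4, with adjusted p up to 0.115. LKO HFD mice were at 3.24, 3.13, 3.11, 2.82 and 3.02 RPKM, all below the lowest FF HFD mouse. The log2 fold change of LKO against FF on HFD was -0.36 ± 0.0788 (SE, limma adjusted p = 0.0157), and it passed the threshold with each mouse left out in turn. Asah1, the acid ceramidase of lysosomes, had means of 14.2 to 17.7 RPKM, Acer3, another alkaline ceramidase, had means of 2.54 to 3.14 RPKM, and neither passed as deposited. After rescaling to the same sum Acer3 passed as higher on HFD in FF mice (limma adjusted p = 0.0441).

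In sphingomyelin turnover, the synthase gene Sgms1 and the neutral sphingomyelinase gene Smpd3 rose on HFD in FF mice and were lower in LKO than in FF mice on HFD. Smpd3 (chr8:106252548-106337988, minus strand) was low in liver, at 0.207, 0.865, 0.534 and 0.654 RPKM in FF CD mice. It was at 1.08, 1.31, 1.89, 2.05 and 1.73 RPKM in FF HFD mice, which all exceeded the FF CD mice. The ratio of the means was 2.85 and the log2 fold change 0.74 ± 0.128 (SE, limma adjusted p = 0.000717).

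The LKO HFD mice were at 0.566, 0.573, 0.462, 0.447 and 0.614 RPKM of Smpd3, within the FF CD range and below every FF HFD mouse. On CD, LKO mice were at 0.219, 0.658, 0.268 and 0.208 RPKM. The log2 fold change of LKO against FF on HFD was -0.75 ± 0.121 (SE), with a limma adjusted p of 0.00151, the smallest among the members in this comparison, and an exact permutation p of 0.00794, the smallest for 5 against 5 mice. It passed with every single mouse left out. The lowest Smpd3 value rested on 28 reads.

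Sgms1, a sphingomyelin synthase of the Golgi, was at 1.75, 1.93, 1.61 and 1.71 RPKM in FF CD and at 2.39, 2.99, 3.07, 3.18 and 2.88 RPKM in FF HFD mice. These groups did not overlap, and the log2 fold change was 0.50 ± 0.0972 (SE, limma adjusted p = 0.00159). The LKO mice on CD were at 2.06, 2.64, 1.90 and 2.23 RPKM and those on HFD at 2.42, 2.37, 2.08, 2.31 and 1.43 RPKM, so the LKO groups overlapped. The HFD effect differed between LKO and FF mice by a log2 value of -0.55 ± 0.137 (SE, limma adjusted p = 0.0364). This difference was lost without FF CD replicate 1, 3 or 4, LKO CD replicate 2 or 4, any of FF HFD replicates 2 to 5 or LKO HFD replicate 3, with adjusted p up to 0.1. LKO against FF on HFD gave -0.33 ± 0.0917 (SE) with a limma adjusted p that rounds to 0.05, just under the threshold, and it was lost on leaving out any mouse but LKO CD replicate 2, FF HFD replicate 1 or LKO HFD replicate 1, with adjusted p up to 0.115.

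The other sphingomyelin genes passed no test as deposited. Sgms2, the plasma membrane synthase, had means of 6.70, 7.86, 7.23 and 8.65 RPKM in FF CD, LKO CD, FF HFD and LKO HFD mice. Smpd1, the acid sphingomyelinase of lysosomes, had means of 13.3 to 15.6 RPKM. Smpd2 was at 7.87 ± 1.13 RPKM in FF CD (SD, n = 4) and 10.7 ± 2.71 RPKM in FF HFD mice (SD, n = 5), with overlap, and it passed as higher on HFD after rescaling to the same sum and without FF HFD replicate 3 (limma adjusted p of 0.00985 and 0.011). Smpd4 had means of 2.30 to 2.71 RPKM.

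Among the glycosphingolipid genes, 4 of 10 tested rose on HFD in FF mice. Hexa, Arsa and Psap act in lysosomal breakdown, and St3gal5, the GM3 synthase, opens the route to gangliosides. Hexa (chr9:59539540-59565109, plus strand) was at 13.3, 13.3, 9.67 and 12.5 RPKM in FF CD and at 24.7, 32.0, 26.4, 26.8 and 23.6 RPKM in FF HFD mice. The groups did not overlap, and the log2 fold change of 1.07 ± 0.153 (SE) was the largest of the members on the log2(RPKM + 1) scale, with a limma adjusted p of 0.000135 and an exact permutation p of 0.00794. With a pseudocount of 0.1 it was 1.13, below Smpd3 (1.44), Acer2 (1.37) and Cers6 (1.20).

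For Hexa, LKO CD mice were at 16.6, 25.6, 13.1 and 22.3 RPKM, from within the FF CD range to within the FF HFD range. LKO HFD mice were at 23.0, 23.6, 21.7, 18.5 and 18.7 RPKM. On CD, LKO against FF gave 0.60 ± 0.161 (SE, limma adjusted p = 0.16, exact permutation p = 0.0857), the smallest adjusted p of the members in that comparison, and without LKO CD replicate 3 it was 0.76 with an adjusted p of 0.027. The HFD effect on Hexa was lower in LKO than in FF mice by a log2 value of 0.92 (fitted difference -0.92 ± 0.216, SE, limma adjusted p = 0.0269). This call was lost without FF CD replicate 3, LKO CD replicate 2 or 4, or FF HFD replicate 2, with adjusted p up to 0.0752.

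Psap was among the most abundant members, at 115, 115, 91.9 and 85.5 RPKM in FF CD and at 177, 201, 151, 161 and 149 RPKM in FF HFD mice. With no overlap, its log2 fold change was 0.72 ± 0.131 (SE, limma adjusted p = 0.00105). The LKO means were 125.7 ± 19.2 RPKM on CD (SD, n = 4) and 133 ± 15.9 RPKM on HFD (SD, n = 5). Arsa was at 10.4, 12.9, 10.7 and 7.99 RPKM in FF CD and at 20.7, 23.8, 16.9, 16.3 and 13.6 RPKM in FF HFD mice, which all lay above the FF CD mice. Its log2 fold change was 0.74 ± 0.174 (SE, limma adjusted p = 0.00619), and the LKO mice, at 13.1, 19.3, 12.6 and 19.4 RPKM on CD and 18.7, 13.4, 15.6, 14.3 and 11.5 RPKM on HFD, overlapped the FF HFD mice on both diets.

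St3gal5 was at 59.6, 63.4, 37.9 and 50.3 RPKM in FF CD and at 62.2, 92.4, 72.3, 146 and 77.2 RPKM in FF HFD mice. The lowest FF HFD mouse lay just below the highest FF CD mouse, and the fourth stood far above the rest. The log2 fold change was 0.72 ± 0.189 (SE, limma adjusted p = 0.0119), and without FF CD replicate 3 the adjusted p was 0.0581. LKO mice were at 52.9 ± 3.82 RPKM on CD (SD, n = 4) and 57.2 ± 5.92 RPKM on HFD (SD, n = 5).

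Ugcg, which makes glucosylceramide from ceramide, passed no test as deposited but showed no overlap between the genotypes on HFD. FF HFD mice were at 4.01, 5.37, 5.48, 5.18 and 5.61 RPKM and LKO HFD mice at 5.94, 6.60, 10.5, 10.2 and 6.23 RPKM. Without LKO HFD replicate 1 the log2 fold change was 0.59 with a limma adjusted p of 0.0332. Smpd3, Asah2 and Ugcg were the 3 members without overlap in this comparison, as were 4.67% of all genes. Galc, the lysosomal galactosylceramidase, was at 4.19, 3.99, 2.27 and 2.39 RPKM in FF CD mice, and its other group means were 1.98 to 2.40 RPKM. The remaining breakdown enzymes Gba2, Glb1, Gla and Neu1 had group means of 1.88 to 2.44, 4.36 to 5.003, 1.36 to 1.60 and 5.96 to 7.51 RPKM and passed no test as deposited. Gla and Neu1 passed as higher on HFD in FF mice after rescaling to the same sum (limma adjusted p of 0.0359 and 0.0136). B4galt6, a lactosylceramide synthase, had group means of 0.279 to 0.459 RPKM and was below the level tested. With no minimum level, B4galt6 and Degs2 passed as higher on HFD in FF mice (limma adjusted p of 0.0471 and 0.048).

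In the sphingosine phosphate step, Sphk2 rose on HFD in FF mice and was the sole member of the step to pass with the values as deposited. It encodes a sphingosine kinase. It was at 5.52, 5.78, 7.14 and 6.01 RPKM in FF CD and at 10.3, 8.40, 7.54, 9.33 and 7.52 RPKM in FF HFD mice, without overlap. The log2 fold change was 0.43 ± 0.109 (SE, limma adjusted p = 0.00925). LKO CD mice were at 6.33 ± 1.04 RPKM (SD, n = 4) and LKO HFD mice at 8.19 ± 0.712 RPKM (SD, n = 5), which overlapped. Sphk1, the other sphingosine kinase, had at most 9 reads in a mouse and was below 3 reads in 5 of 18 mice, so a difference could not be detected at this depth.

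The enzymes that remove sphingosine phosphate passed no test as deposited. The lyase gene Sgpl1 had means of 11.4 to 12.7 RPKM, and the phosphatase gene Sgpp1 had means of 24.3, 24.5, 22.0 and 21.2 RPKM in FF CD, LKO CD, FF HFD and LKO HFD mice. Cerk, the ceramide kinase, had means of 0.438, 0.496, 0.741 and 0.685 RPKM in the same order and did not pass as deposited. It passed as higher on HFD in FF mice after rescaling to the same sum, with a replicate block and without FF HFD replicate 1 or 5 (limma adjusted p of 0.0165 to 0.0474).

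The steps differed in abundance. Summed over their genes, de novo synthesis was at 221 ± 20.7 RPKM in FF CD, 230 ± 11.7 in LKO CD (SD, n = 4 each), 236 ± 16.4 in FF HFD and 218 ± 17.96 RPKM in LKO HFD mice (SD, n = 5 each), with Cers2 as its largest part. The glycosphingolipid genes summed to 201 ± 29.9, 239 ± 30.3, 326 ± 44.2 and 252.3 ± 24.9 RPKM in the same order. FF HFD mice, at 287 to 374 RPKM, all exceeded the FF CD mice, whose highest was at 228 RPKM. Psap and St3gal5 were the largest parts of this sum. Their means were 102 and 52.8 RPKM in FF CD and 168 and 89.9 RPKM in FF HFD mice. Of the 10 tested genes of the step, 6 had a positive fitted value on HFD in FF mice. The ceramidases summed to means of 21.4 to 27.7 RPKM, the sphingomyelin genes to 32.6 to 40.0 RPKM and the sphingosine phosphate genes to 42.2 to 44.0 RPKM. The sums carry no test.

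Some marker lists of other liver cells moved with diet as well. Of the 2 cholangiocyte markers and 1 lymphocyte marker tested, none passed on HFD in either genotype. On HFD, 9 of 9 tested Kupffer cell and macrophage markers and 7 of 7 endothelial markers had a positive fitted value in each genotype, with 3 (Adgre1, Csf1r and Vsig4) and 5 (Clec4g, Lyve1, Oit3, Pecam1 and Stab1) of them passing the adjusted p in FF mice and 1 (Clec4f) and 0 in LKO mice. In FF mice 3 of 8 stellate cell markers, Col1a1, Col1a2 and Col3a1, passed as higher on HFD, and these 3 passed as lower in LKO than in FF mice on HFD. In LKO mice 2 of the 8 had a positive fitted value on HFD and none passed. For scale, 15.8% of all genes passed as higher on HFD in FF mice, and 4.05% passed in LKO mice. Of 7 hepatocyte markers, Apoa1, Cps1 and Serpina1a passed as lower on HFD in FF mice, and Ttr as lower on HFD in LKO mice. Apoa1 and Serpina1a passed as higher in LKO than in FF mice on HFD. The summed endothelial level was higher in every FF HFD mouse than in every FF CD mouse, like the glycosphingolipid sum, and the lowest FF HFD macrophage sum, 72.6 RPKM, lay within the FF CD range. The part of these cells in the changes of the sphingolipid genes was not tested.

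**Figure D4:**
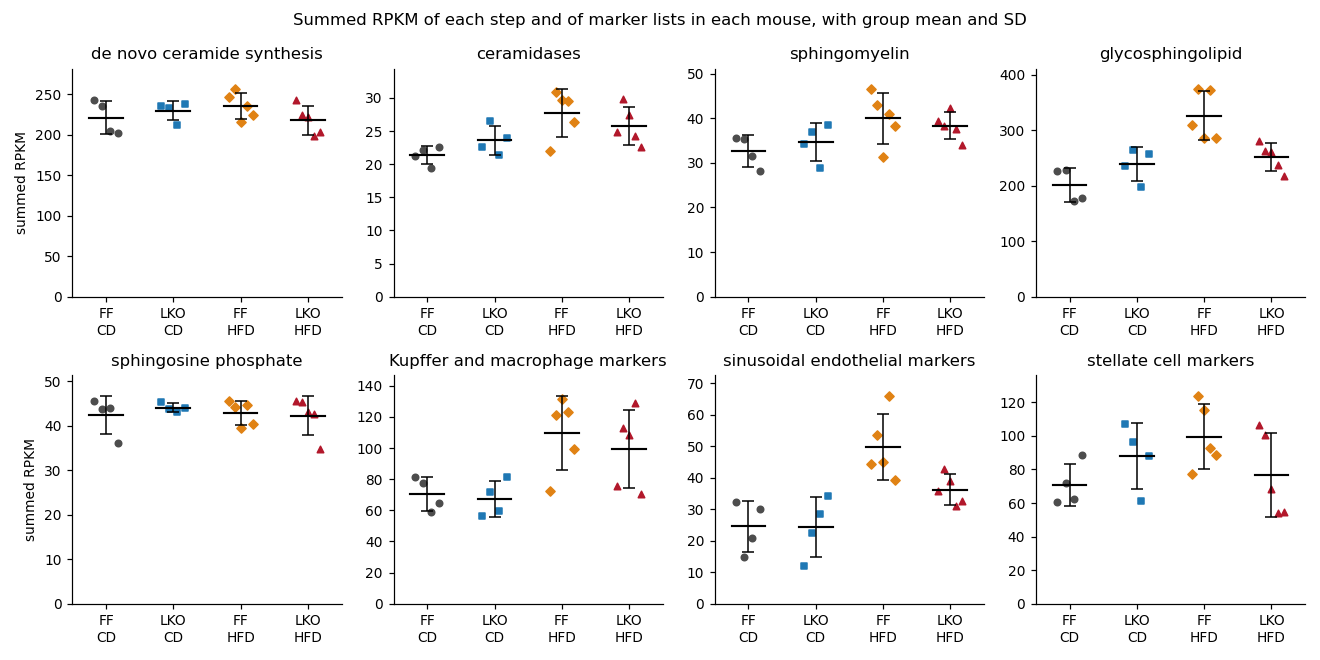
Summed RPKM of the 5 steps and of 3 marker lists in each mouse, with group mean (line) and SD (bar). The glycosphingolipid sum, of which Psap and St3gal5 are the largest parts, is 287 RPKM or more in all FF HFD mice. It is 228 RPKM or less in all FF CD mice. The endothelial and macrophage marker sums have higher means on HFD in both genotypes.

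Genes of the pathway that are not members were counted in the same fits. Of 43 further sphingolipid genes 22 were tested. On HFD in FF mice 6 rose and 1 fell by adjusted p, where 15.8% of all genes rose and 4.79% fell. In LKO mice on HFD 2 rose, S1pr2 and S1pr5, where 4.05% of all genes passed. None of the 22 differed between the genotypes on CD. On HFD 3 were lower in LKO mice (Aldh3a2, Gal3st1 and Smpdl3a) and 2 higher (S1pr1 and B4galnt1). In that comparison 4.2% of all genes passed, 2.1% as lower in LKO mice. Aldh3a2, the dehydrogenase that turns the aldehyde released from sphingosine phosphate into a fatty acid, rose by 1.59 ± 0.179 on the log2 scale in FF mice (SE, limma adjusted p = 1.27e-05), from a mean of 47.0 to 142 RPKM. Its mean was 76.7 RPKM in LKO CD and 83.2 RPKM in LKO HFD mice, and its lower level in LKO than in FF mice on HFD was lost without FF HFD replicate 2 (adjusted p = 0.052). The HFD effect on Aldh3a2 differed between the genotypes by -1.47 ± 0.253 (SE, limma adjusted p = 0.00335).

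Gal3st1, the sulfotransferase that makes sulfatide, the lipid that Arsa degrades, rose by 1.06 ± 0.159 in FF mice (SE, limma adjusted p = 0.000195), from a mean of 0.204 to 1.54 RPKM, and was lower in LKO than in FF mice on HFD, with a log2 fold change of -0.80 ± 0.15 (SE, limma adjusted p = 0.00504). Smpdl3a, a relative of the acid sphingomyelinase, rose by 0.64 ± 0.0951 in FF mice (SE, limma adjusted p = 0.000191), and its HFD effect differed between the genotypes by -0.72 ± 0.135 (SE, limma adjusted p = 0.00567). Phyh, a peroxisomal hydroxylase, fell by 0.38 on the log2 scale in FF mice (SE 0.0906, limma adjusted p = 0.00679), and after quantile normalization the value was -0.23 with an adjusted p of 0.114.

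Among the receptors for sphingosine phosphate, S1pr2 rose on HFD in both genotypes, by 0.59 ± 0.112 in FF mice (SE, limma adjusted p = 0.00143) and 0.45 ± 0.112 in LKO mice (SE, limma adjusted p = 0.0373). The LKO call of S1pr2 was lost without LKO CD replicate 1, 3 or 4 or LKO HFD replicate 3 or 5, with adjusted p up to 0.122, and after quantile normalization or centring (0.0842 and 0.0545). S1pr5 rose in LKO mice by 0.56 ± 0.12 (SE, limma adjusted p = 0.0215), with a difference between the genotypes of 0.82 ± 0.17 (SE, limma adjusted p = 0.012), and its rise was lost without LKO CD or LKO HFD replicate 3 (adjusted p of 0.0698 and 0.0599) and after quantile normalization (0.0608). The S1pr5 means were 2.31 RPKM in FF CD, 1.33 in LKO CD, 1.83 in FF HFD and 2.43 RPKM in LKO HFD mice. S1pr1 was higher in LKO than in FF mice on HFD by 0.46 ± 0.111 (SE, limma adjusted p = 0.0256), a call lost without any of FF HFD replicates 3 to 5 or LKO HFD replicates 3 and 4, with adjusted p up to 0.0798.

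Of 25 other lysosomal genes, all tested, 9 rose on HFD in FF mice by adjusted p and none fell, where 15.8% of all genes rose and 4.79% fell. In LKO mice on HFD 1 rose, Sgsh, where 4.05% of all genes passed. None passed in either comparison of the genotypes or in the interaction. The FF rises included Lipa, the acid lipase (0.78 ± 0.161, SE, limma adjusted p = 0.00244), Grn, the progranulin gene (0.67 ± 0.15, limma adjusted p = 0.00423), the protease genes Ctss, Ctsd, Ctsb and Tpp1 (0.78, 0.53, 0.47 and 0.32), Lamp1 (0.39) and Man2b1 (0.36), all on the log2(RPKM + 1) scale. Without FF CD replicate 3, Ctss, Ctsd and Ctsb missed the threshold (adjusted p of 0.0624, 0.0942 and 0.0642), as did Ctsd and Ctsb without FF CD replicate 4 or FF HFD replicate 2, and Tpp1 missed it after centring or quantile normalization (0.0806 and 0.117). The median log2 fold change of the 25 genes was 0.238 in FF mice, beside 0.071 for all genes, and 0.011 in LKO mice, beside 0.067 for all genes.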

How the data were processed

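Total liver RNA of 18 male mice was sequenced. According to the deposited labels and methods, the authors aligned reads with HISAT2 2.0.4 to mm10 and quantified genes in Partek, and the deposited values are RPKM per gene, 1 table per mouse; strand handling was not given in the sources used here. Samples were grouped by the genotype and diet named in their titles. From the RPKM values, log2(RPKM + 1) was computed, a minimum mean level of 0.5 RPKM left 11090 of 25266 genes, and limma 3.58.1 (trend, R 4.3.3) was fitted to all 4 groups. Benjamini-Hochberg adjustment ran over all 11090 genes for each contrast. A gene was called at a fold above 1.5 with an adjusted p under 0.05. The fit was tested on simulated data. Single members were also compared by exact two-sided permutation of mice. RPKM is per length, so levels were compared between genes on that scale. The tables hold no counts, so depth and reads were recovered from the steps of low RPKM values. For 29 members these gave whole reads, and for the other 9 the reads are estimates. Read numbers bear on counting error only.

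The members and gene lists were chosen with earlier results of these data known. Fold changes are printed for members that passed the adjusted p, for the member with the smallest adjusted p of a comparison where none passed, and for up to 8 genes of each of the wider sphingolipid and lysosomal lists with the smallest adjusted p in any comparison. The values of 1 gene of the wider list are not reported here. Remarks on Ugcg, Galc, B4galnt1 and Sgsh and the names of single markers were added after their values were seen. Gene positions are from GENCODE vM21 (GRCm38, the mm10 build), and promoter windows from RefSeq. Ceramide transfer protein and glucocerebrosidase were looked up under older symbols. Other settings, leaving out each mouse, and a replicate block were run as alternatives. Deviations of same-numbered mice from their group means correlated at -0.17 to 0.33 in 25 pairs, 10 over 0.1. The median was 0.054 for these pairs and -0.012 for pairs with other numbers. No 2 tables were identical, and separate libraries are taken as separate mice. Labels name a small RNA kit beside a standard protocol, and the tables hold messenger RNA.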

Additional observations from a re-analysis of the deposited data

Results flagged for a closer look

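The effect of HFD differed between the genotypes for 2 members by the interaction test, Hexa (log2 difference -0.924) and Sgms1 (-0.548), both with a smaller fitted effect in LKO mice. Their adjusted p and the mice they rest on are given with the levels above.

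In 10 of 152 member and group combinations, 1 mouse stood apart from the others of its group by Dixon's criterion, which chance alone meets in about 1 of 20 groups. FF CD replicate 3 had the lowest level of Sptlc2, at 1.999 RPKM where the others were at 2.201 to 2.239, and of Glb1, at 4.432 RPKM where the others were at 5.149 to 5.263. FF CD replicate 4 had the lowest Smpd2 level, 6.178 RPKM against 8.24 to 8.546. In LKO CD mice, replicate 1 was low for Acer2, at 0.7833 RPKM against 1.529 to 1.622. Replicate 2 of LKO CD was high for Smpd3, at 0.6578 RPKM against 0.2079 to 0.2678, and for Degs2, at 0.2599 RPKM against 0.124 to 0.1404. In FF HFD mice, replicate 3 was high for Smpd4, at 2.909 RPKM against 2.296 to 2.472, and replicate 1 was low for Ugcg, at 4.009 RPKM against 5.183 to 5.608. In LKO HFD mice, replicate 3 was high for Smpd1, at 18.56 RPKM against 13.98 to 15.19, and replicate 2 for B4galt6, at 0.6164 RPKM against 0.3518 to 0.4011.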

How the results depend on the processing

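The count of members called on HFD in FF mice stayed within 1.5 times of 9 under all settings tried, from 6 to 9 when mice were left out singly. In LKO mice on HFD it was 0 throughout, and for LKO against FF on CD it was 0 under all settings and 0 to 1 when mice were left out. For LKO against FF on HFD the count of 2 became 4 by adjusted p alone, 1 without the filter, with a mean RPKM of at least 1, with only the groups compared and without moderation, 3 after rescaling or centring, and 1 to 3 with mice left out. The interaction count of 1 is the least stable: it was 2 by adjusted p alone, with a pseudocount of 0.1 and with voom on estimated reads, 3 with quantile normalization, centring on the median or a replicate block, 5 with values rescaled to the same sum, 0 without the filter or without moderation, and 0 to 4 with mice left out. The cause was not tested. With the replicate number as a block, which is a shared number and not a pairing, the counts in the other comparisons were 9, 0, 0 and 2. The median log2 fold change of the members on HFD in FF mice went from 0.22 to between 0.116 (quantile normalization) and 0.294 (voom), and that in LKO mice from 0.059 to 0.005 with quantile normalization and -0.037 with centring. No fold change of a single gene changed sign in these checks. Several calls close to the threshold were lost without the filter (Acer2, Sgms1, Hexa and S1pr2), without moderation (the same 4) or with only the groups compared (Acer2, Asah2, Ctsb, S1pr1, S1pr2, Sgms1 and St3gal5). Of 459 checks of single genes under other settings, 27 fell below and 1 rose above the threshold, and of 846 checks with a mouse left out 61 fell below and 3 rose above it. These counts cover calls that had passed, and the member with the smallest adjusted p where none passed, so they could show few rises. Most results of members that passed only under another setting are outside these counts. Examples are the interaction for Psap and Arsa and the HFD effect on Neu1 in FF mice. Rescaling, quantile normalization and centring moved the median of all genes on HFD in FF mice from 0.071 to 0.139, -0.025 and -0.02. Depth limits Sphk1, and reads of the 9 members without whole reads are estimates.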
